A study of Rattus norvegicus with 10 samples.

Results

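Transcripts of 10 polyamine metabolism genes were compared between hippocampal tissue of rats with epilepsy evoked by amygdala stimulation and of sham-operated rats. The genes were Odc1, Amd1, Srm and Sms for synthesis, Oaz1, Oaz2 and Azin1 for its regulation, and Sat1 and Smox for breakdown. Sat2, of the same acetyltransferase family as Sat1, was also included. Members were found by gene symbol, and each symbol matched 1 row (called a feature here) of the 32041 features in the count matrix, of which 22447 held enough counts to be tested, all 10 members among them. Sat2 was picked for its fall in stimulated rats, so its values in this comparison are given as a description with no test. The other 9 members were tested, although they too were chosen with earlier results of these data known.

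The samples were 10 adult male Sprague-Dawley rats, an outbred strain, 5 per group, and each sample was a separate animal. Every rat carried electrodes in the left lateral amygdala, implanted under isoflurane after butorphanol, and the sham rats (rats 1 to 5) received no current. Stimulated rats (rats 6 to 10) received pulses of 400 µA at 60 Hz for 30 min, longer where status epilepticus did not start. Diazepam was injected at 20 mg/kg, and repeated where needed, to stop the prolonged seizure. Per the methods of the study, each stimulated rat enrolled had spontaneous seizures on video EEG. Polyadenylated RNA was sequenced 3 months after stimulation from left hippocampal tissue that held CA3 and the dentate gyrus, which the labels call dorsal hippocampus. Aligned counts per rat ranged from 13552309 to 24086059, and the share of reads left unaligned from 32.82% to 37.09% in sham and from 32.01% to 45.14% in stimulated rats, with rats 8, 9 and 10 the highest. The lowest count of a member in any rat was 245, for which counting error alone is 6.39%.

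Polyamines (putrescine, spermidine and spermine) are small organic cations that bind nucleic acids and block or modulate several ion channels in neurons. Ornithine decarboxylase makes putrescine from ornithine, and spermidine and spermine synthases then add aminopropyl groups that derive from decarboxylated S-adenosylmethionine. Antizymes bind ornithine decarboxylase and direct it to the proteasome, and antizyme inhibitor binds antizymes in its place. Breakdown runs through acetylation by spermidine/spermine acetyltransferase and through direct oxidation of spermine.

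The stretch of 250 bases that precedes the annotated start is shown for the 4 members whose group means differed most, Sat1, Odc1, Smox and Sat2, so that members whose levels followed like and unlike patterns over the rats can be read side by side. Sequences were taken from RefSeq on the GRCr8 assembly, 5′ to 3′, each from the + strand. They lie at chrX:44007839-44008088 (Sat1), chr6:46058415-46058664 (Odc1), chr3:139204351-139204600 (Smox) and chr10:54839648-54839897 (Sat2). Capitals mark TGACG or its complement CGTCA, the half-site of the cyclic AMP response element.
Sat1: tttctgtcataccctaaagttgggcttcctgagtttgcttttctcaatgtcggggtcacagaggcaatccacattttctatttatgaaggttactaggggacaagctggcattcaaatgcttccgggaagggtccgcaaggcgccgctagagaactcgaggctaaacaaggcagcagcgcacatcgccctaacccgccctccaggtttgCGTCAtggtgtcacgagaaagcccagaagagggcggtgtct
Odc1: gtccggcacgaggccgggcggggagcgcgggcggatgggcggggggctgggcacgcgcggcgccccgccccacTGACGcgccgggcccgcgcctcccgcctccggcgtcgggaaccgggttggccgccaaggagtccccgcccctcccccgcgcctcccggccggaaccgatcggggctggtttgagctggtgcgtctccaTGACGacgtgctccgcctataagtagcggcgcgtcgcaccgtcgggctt
Smox: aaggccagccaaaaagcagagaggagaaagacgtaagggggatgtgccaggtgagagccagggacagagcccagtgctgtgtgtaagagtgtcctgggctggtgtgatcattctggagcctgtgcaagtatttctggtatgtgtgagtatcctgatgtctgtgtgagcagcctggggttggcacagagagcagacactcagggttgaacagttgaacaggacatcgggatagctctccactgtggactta
Sat2: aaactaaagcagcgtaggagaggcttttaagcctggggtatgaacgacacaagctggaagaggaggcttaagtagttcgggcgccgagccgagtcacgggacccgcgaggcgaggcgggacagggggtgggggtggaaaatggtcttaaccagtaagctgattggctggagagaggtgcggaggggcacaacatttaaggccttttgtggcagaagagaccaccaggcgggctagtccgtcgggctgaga

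Of the 10 members, 9 had such a window. The half-site TGACG, searched on both strands, was found once in Sat1, at 41 bases before the start, and 2 times in Odc1, at 177 and 49 bases before it. Amd1 and Sms each held 1 match and Oaz1 held 2, whereas Smox, Sat2, Srm and Oaz2 held none. Over all 33469 windows, 18.2% held TGACG, and 1.59% held the full element TGACGTCA, which contains the half-site and was found in no member. The E-box CACGTG was found in Srm and Oaz1 and in 5.59% of windows, and TATAAA in Amd1 and Oaz1 and in 12.9%. The AP-1 motif TGANTCA (6.34% of windows) was found in no member, and the GC box GGGCGG (30.5% of windows) in each member with a window apart from Sat2 and Smox. GC content was 78% in the Odc1 window, 58.4% in Sat2, 53.2% in Smox and 52.8% in Sat1, against a median of 51.2% over all windows. A match describes letters in the window and not a bound site.

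Among the 9 tested members, Smox, Sat1, Odc1 and Azin1 had higher group means in stimulated rats, with fitted folds of 1.45, 1.34, 1.31 and 1.24 and an unadjusted p under 0.05, and no member was lower at that level (edgeR's quasi-likelihood test). This was 4 of 9 members, where 6.70% of all tested features were higher, 3.16% were lower and 9.86% were either at the same level. Because the members were chosen with earlier results of these data known, this share is a description and not a test of the group. After Benjamini-Hochberg adjustment over all features 0 members passed 0.05, as did 0 of the 22447 features (0% called), and the lowest adjusted p of any feature was 0.376. The feature count rested on the test, with 119 features in edgeR's likelihood ratio test, 89 in its exact test and 33 in DESeq2, and 0 members in each. The study's own edgeR list for this model gives Smox as higher, at an adjusted p under 0.05, and Sat2 as lower. That list holds many other transcripts at this level, whereas 0 features passed the quasi-likelihood test here. The study's methods count fewer stimulated rats than were used here, and describe a negative binomial model in edgeR without naming the quasi-likelihood test. For Amd1, Srm, Sms, Oaz1 and Oaz2 the 95% interval of the log2 fold change included 0. The median log2 fold change of the 10 members was 0.09, or 0.10 without Sat2, beside 0.01 over all tested features.

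**Figure D1:**
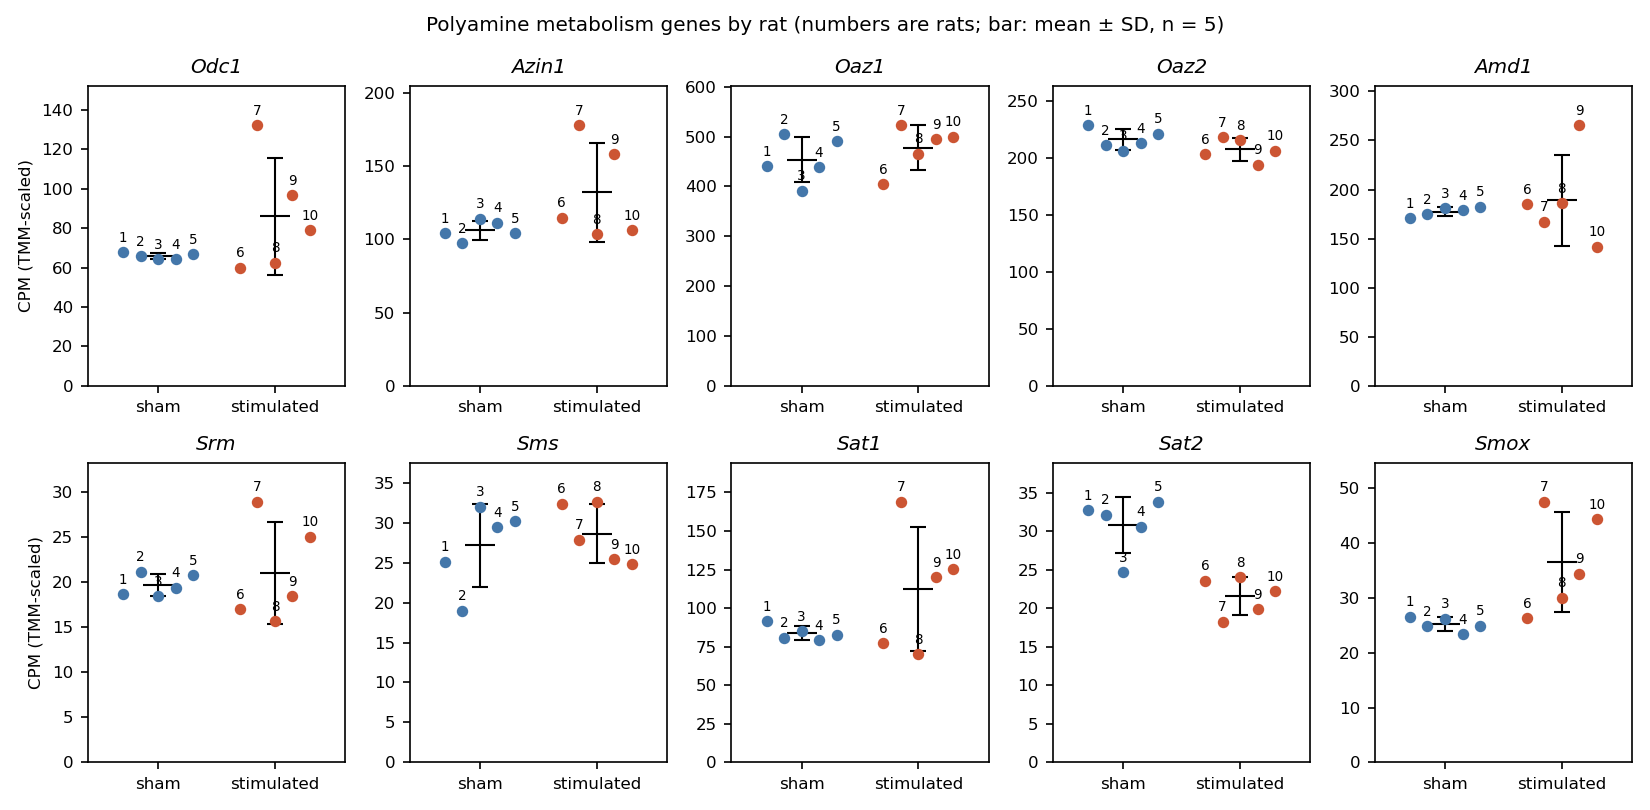
CPM (normalised counts, y axis from 0) of each polyamine metabolism gene in the 5 sham (blue) and 5 stimulated rats (red), with the rat number over each point and bars for the mean ± SD. Stimulated rats 7, 9 and 10 sit above all sham rats for Odc1, Sat1 and Smox, and all stimulated rats sit below all sham rats for Sat2, the gene chosen for that fall.

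Synthesis was examined first. Odc1 (NM_012615), which encodes the enzyme that commits ornithine to polyamines, stood at 67.8, 65.7, 64.4, 64.3 and 66.7 CPM, the count of the gene after all libraries were brought to a common effective size, in sham rats 1 to 5. In stimulated rats 6 to 10 it stood at 59.9, 132, 62.5, 96.7 and 79.0 CPM. Rats 7, 9 and 10 were above every sham rat and rats 6 and 8 were below every sham rat, so that the stimulated group straddled a narrow sham range. Sham rats averaged 65.8 ± 1.51 CPM of Odc1 and stimulated rats averaged 86.1 ± 29.8 CPM (± SD, n = 5 per group). The fitted log2 fold change was 0.39 (SE 0.179, 95% interval 0.00 to 0.77), with an adjusted p = 0.501 in edgeR's quasi-likelihood test.

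Amd1 (NM_031011) encodes S-adenosylmethionine decarboxylase, the source of aminopropyl groups. Its levels were 171, 175, 181, 179 and 183 CPM across sham rats and 185, 167, 186, 266 and 142 CPM across stimulated rats. Rat 9 was the highest and rat 10 the lowest of all 10 rats, although both were high for Odc1. The log2 fold change was 0.09 (95% interval -0.19 to 0.37, edgeR adjusted p = 0.86).

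Srm (NM_053464), spermidine synthase, was measured at 18.7, 21.1, 18.5, 19.4 and 20.8 CPM across sham rats and 17.0, 28.9, 15.6, 18.5 and 25.0 CPM across stimulated rats. Rats 7 and 10 were above all sham rats and the others lay within or below the sham range. Sms (NM_001033899), spermine synthase, was measured at 25.1, 19.0, 32.0, 29.4 and 30.2 CPM across sham rats and 32.4, 27.9, 32.6, 25.5 and 24.8 CPM across stimulated rats. Its rats were ordered differently, with rats 6 and 8 above all sham rats by a narrow margin. Log2 fold changes were 0.10 for Srm (95% interval -0.25 to 0.44, edgeR adjusted p = 0.879) and 0.07 for Sms (-0.23 to 0.38, edgeR adjusted p = 0.901). Thus of the synthetic enzymes Odc1 alone had an unadjusted p under 0.05, and the differences between enzymes were not tested.

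Among the regulators, Oaz1 (NM_139081), antizyme 1, was measured at 441, 504, 392, 439 and 491 CPM across sham rats and 405, 523, 465, 495 and 500 CPM across stimulated rats. Only rat 7 exceeded the highest sham rat. Oaz2 (NM_001109899), antizyme 2, was measured at 229, 211, 206, 213 and 221 CPM across sham rats and 203, 218, 215, 194 and 206 CPM across stimulated rats, with overlapping groups. Log2 fold changes were 0.08 for Oaz1 (95% interval -0.12 to 0.27, edgeR adjusted p = 0.817) and -0.06 for Oaz2 (-0.21 to 0.09, edgeR adjusted p = 0.806). These intervals were the narrowest of the 10 members.

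Azin1 (NM_022585), antizyme inhibitor 1, which frees ornithine decarboxylase from antizyme, was measured at 104, 97.6, 114, 111 and 104 CPM across sham rats and 115, 178, 104, 158 and 106 CPM across stimulated rats. Rats 7 and 9 were far above the sham range and rat 6 was marginally above it, whereas rats 8 and 10 lay inside it. Sham rats averaged 106 ± 6.55 CPM of Azin1 and stimulated rats averaged 132 ± 33.8 CPM (± SD, n = 5 per group). The log2 fold change was 0.31 (SE 0.143, 95% interval 0.01 to 0.62, edgeR adjusted p = 0.491).

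Breakdown was examined last. Smox (NM_001134854), spermine oxidase, which turns spermine into spermidine with release of hydrogen peroxide, was measured at 26.6, 24.9, 26.2, 23.4 and 24.9 CPM in sham rats. Stimulated rats 6 to 10 had 26.3, 47.5, 30.0, 34.4 and 44.3 CPM. Rats 7 to 10 were above all sham rats, and the groups overlapped through rat 6, which lay below sham rat 1. They no longer overlapped without rat 6, or with library size alone as the scaling. Sham rats averaged 25.2 ± 1.27 CPM of Smox and stimulated rats averaged 36.5 ± 9.13 CPM (± SD, n = 5 per group), a fitted fold of 1.45. The log2 fold change was 0.54 (SE 0.149, 95% interval 0.22 to 0.86, edgeR adjusted p = 0.38). None of the 9 tested members had groups that did not overlap, beside 0.695% of all features separated upward and 0.597% separated downward.

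Sat1 (NM_001007667), the inducible acetyltransferase that marks spermidine and spermine for export or oxidation, was measured at 91.4, 80.8, 85.0, 79.1 and 82.9 CPM in sham rats. In stimulated rats it was measured at 77.5, 169, 70.0, 120 and 125 CPM. As for Odc1, rats 7, 9 and 10 were above and rats 6 and 8 below every sham rat. Sham rats averaged 83.9 ± 4.79 CPM of Sat1 and stimulated rats averaged 112 ± 40.2 CPM (± SD, n = 5 per group). The log2 fold change of Sat1 was 0.42 (SE 0.193, 95% interval 0.01 to 0.84, edgeR adjusted p = 0.492).

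Sat2 (NM_001108278) belongs to the same acetyltransferase family, and its part in polyamine breakdown was not measured here. Chosen from this contrast, it was measured at 32.7, 32.1, 24.7, 30.6 and 33.8 CPM across sham rats and 23.6, 18.2, 24.0, 19.8 and 22.2 CPM across stimulated rats. The groups did not overlap, and the margin was narrow, since sham rat 3 stood at 24.7 and stimulated rat 8 at 24.0 CPM. Sham rats averaged 30.8 ± 3.62 CPM and stimulated rats averaged 21.6 ± 2.47 CPM (± SD, n = 5 per group), a fitted log2 fold change of -0.51 and a fold of 0.701. In bulk tissue fewer cells of a type and less RNA per cell cannot be told apart, for this and each other member.

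**Figure D2:**
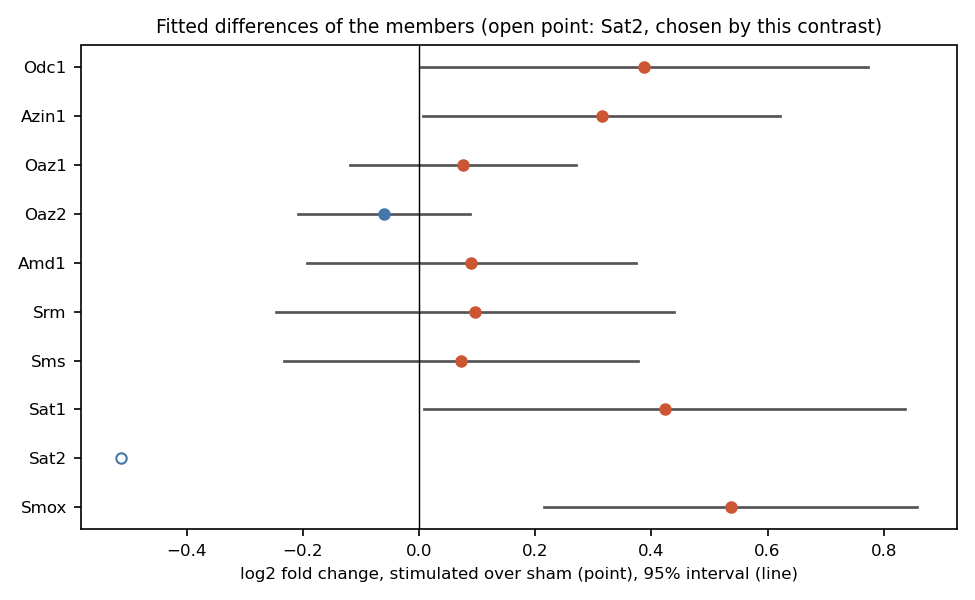
Fitted log2 fold change of each member, stimulated over sham (x axis), with the 95% interval as a line, red for higher and blue for lower. Smox (0.54) lies farthest above 0 among the filled, tested points, and the open point marks Sat2 (-0.51), which was chosen by this contrast and is drawn with no interval.

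The calls of Sat1, Odc1 and Azin1 at an unadjusted p under 0.05 depended on single rats and on the settings. Without stimulated rat 7 none of the 3 was called, and their log2 fold changes were 0.22, 0.17 and 0.17 (edgeR adjusted p of 0.791, 0.799 and 0.781). Without rat 9 none was called either, at 0.40, 0.34 and 0.24, and without rat 10 Azin1 alone was called, at 0.38. Leaving out any 1 of sham rats 1 to 5 also ended all 3 calls, with log2 fold changes of 0.40 to 0.45 for Sat1, 0.38 to 0.39 for Odc1 and 0.28 to 0.34 for Azin1. Smox kept an unadjusted p under 0.05 under each of 22 alternatives, with log2 fold changes of 0.41 to 0.62 and adjusted p of 0.0983 to 0.661. It was the one member called with upper quartile factors or with limma-voom, and Azin1 was called beside it with robust empirical Bayes. Odc1 alone of the 4 also lost its call with RLE factors, with a filter of 10 counts in 4 samples and with one row per gene symbol, and was called in 8 of the 22 alternatives, beside 11 for Sat1 and 13 for Azin1.

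It was next asked how the members varied between rats. Stimulated rat 7 had the highest level of 6 of the 10 members and was among the 3 highest rats for 7. Rats 9 and 10 were each among the 3 highest for 5 members. In rat 7, log2 CPM exceeded the sham mean by 1.01 for Odc1, 1.01 for Sat1, 0.92 for Smox, 0.75 for Azin1 and 0.55 for Srm, and was 0.74 below it for Sat2 (a deviation of -0.74). In rat 8 the same values were -0.07, -0.26, 0.25, -0.04 and -0.33, and -0.35 for Sat2. Sat2, Sat1 and Odc1 were thus all below the sham mean in rat 8, as they were in rat 6, whereas in rats 7, 9 and 10 Sat2 was below it and the other two were above it.

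**Figure D3:**
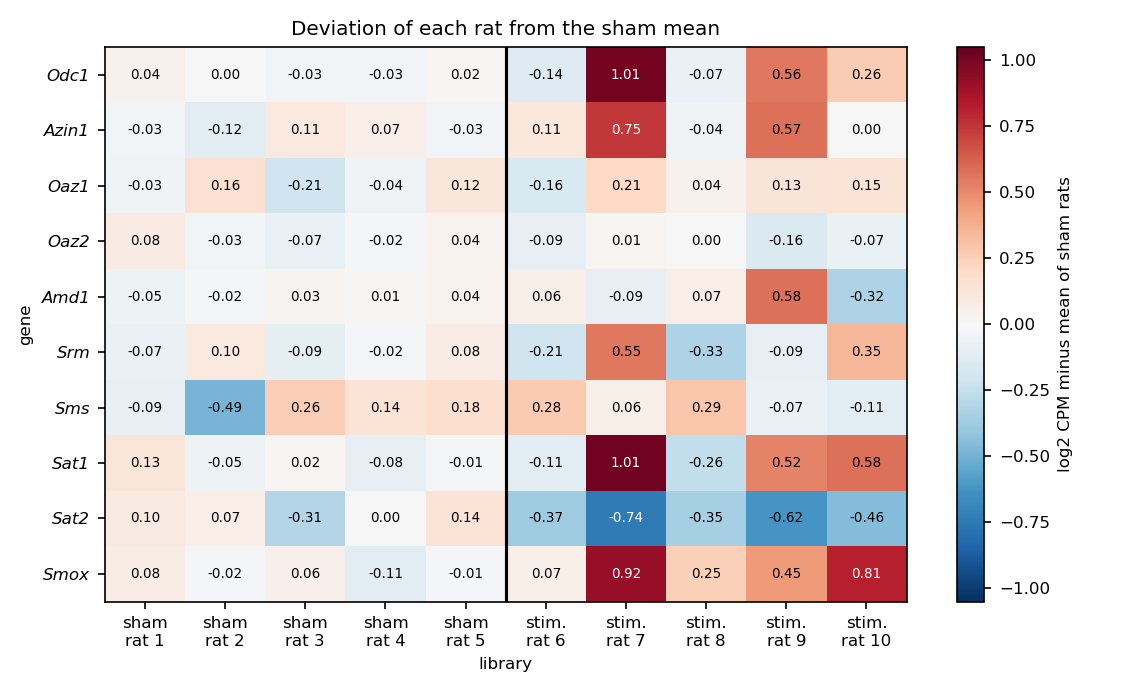
Each cell gives log2 CPM of a member (rows) in a rat (columns) minus the mean of the sham rats, in red where higher and blue where lower. Rats 7, 9 and 10 are red for Odc1, Sat1 and Smox, with 1.01 in rat 7 for both Odc1 and Sat1, and Sat2 is blue in each stimulated rat.

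The SD of CPM was larger in stimulated than in sham rats for 8 of 10 members, the exceptions being Sat2 and Sms, and for 69.3% of all features. The ratio of the SDs had a median of 4.92 over the members and 1.37 over all features, and reached 19.7 for Odc1, whose sham rats lay close together. These ratios describe the samples, were not tested, and were set beside all features without matching for count level.

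Ratios of counts within a library do not depend on how libraries are scaled, and were compared between rats as descriptions, without correction for transcript length. Sat2 over Sat1 was 0.358, 0.398, 0.290, 0.387 and 0.408 across sham rats and 0.304, 0.108, 0.343, 0.165 and 0.177 across stimulated rats. Rats 7, 9 and 10 were below all sham rats, whereas rats 6 and 8 lay inside the sham range. On the log2 scale the ratio averaged -1.45 ± 0.199 over sham rats and -2.31 ± 0.684 over stimulated rats (± SD, n = 5 per group). Odc1 over Oaz1, the enzyme against its antizyme, was -2.78 ± 0.135 and -2.53 ± 0.365, and Azin1 over Oaz1 was -2.09 ± 0.228 and -1.88 ± 0.305. Smox over Sat1 was -1.73 ± 0.0366 and -1.58 ± 0.249, and Oaz2 over Oaz1 was -1.06 ± 0.139 and -1.20 ± 0.144. Sms over Srm was 0.44 ± 0.359 and 0.48 ± 0.517. The groups overlapped in each of the 6 ratios. Single rats set several of these differences. The difference between the group means of log2 Odc1 over Oaz1 was 0.25 and became 0.11 without rat 7, and that of Azin1 over Oaz1 was 0.20 and became 0.12 without rat 7 and 0.13 without sham rat 2. That of Smox over Sat1 was 0.15 and became 0.06 without rat 8. That of Sms over Srm was 0.03 and turned negative without sham rat 2 (-0.11) and without stimulated rat 6 (-0.08) or rat 8 (-0.11).

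**Figure D4:**
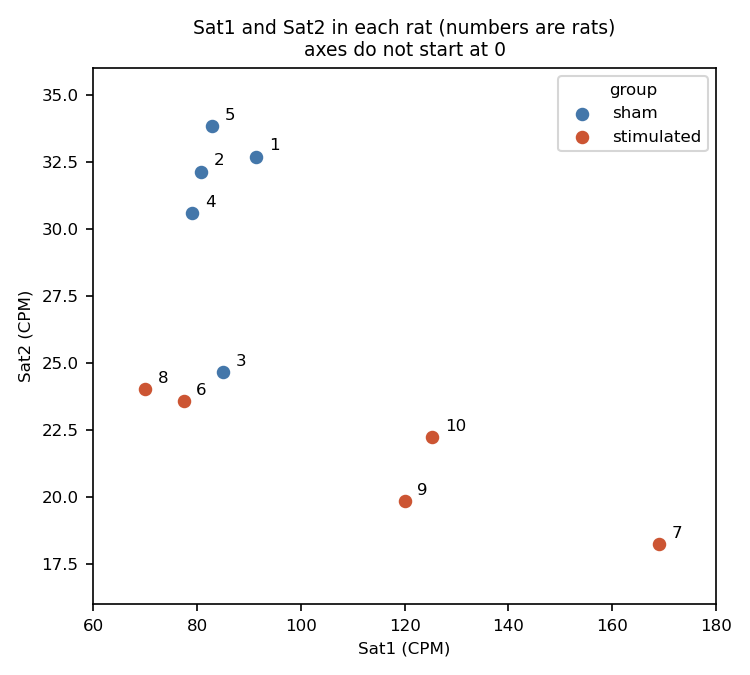
Sat1 (x axis) and Sat2 (y axis) in CPM in each of the 10 rats, numbered, sham in blue and stimulated in red, on axes that do not start at 0. Rats 7, 9 and 10 lie to the right at 120 to 169 CPM of Sat1, and rats 6 and 8 lie at low Sat1 close to sham rat 3.

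Marker genes of cell types and of neuronal activity were read in the same libraries. The tissue held transcripts of neurons, dentate granule cells and CA3, and also of CA1, whose 4 markers summed to 176 to 296 CPM in sham rats beside 187 to 237 CPM for 4 dentate markers, although the dentate marker Lct and the CA3 marker Iyd were under 2 CPM. The summed level of 8 immediate early genes, induced within minutes of neuronal activity, was 125 to 165 CPM in sham rats and 176, 634, 118, 1610 and 636 CPM in stimulated rats 6 to 10. All 8, Npas4 at under 2 CPM among them, had an unadjusted p under 0.05 and were higher in stimulated rats (edgeR). The immediate early gene Fos was at 3.26 to 5.32 CPM in sham rats and at 5.61, 106, 5.24, 50.3 and 61.7 CPM in stimulated rats. Rats 7, 9 and 10 were thus the highest rats for these genes as for Odc1, Sat1 and Smox. In the other stimulated rats the match was partial. Rat 6 was marginally above the sham range for the sum and for Fos, below it for Odc1 and Sat1 and within it for Smox. Rat 8 was below the sham range for the sum, Odc1 and Sat1, within it for Fos and above it for Smox.

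The 6 astrocyte markers summed to 3081 to 3480 CPM in sham and to 3054, 8349, 3167, 4137 and 7199 CPM in stimulated rats, with 3 of 6 higher at an unadjusted p under 0.05. Gfap, the intermediate filament of reactive astrocytes, was at 1327 to 1927 CPM in sham and at 1326, 6469, 1375, 2079 and 5396 CPM in stimulated rats. Rats 7, 9 and 10 were above all sham rats for both values. Gfap is among the 6 summed markers and makes up a large part of their sum, so the 2 values are not separate observations. The log2 fold change was positive for 4 of the 6 astrocyte markers and not for the others. Microglial markers summed to 294 to 378 CPM across sham rats and 318, 501, 339, 469 and 404 CPM across stimulated rats. The same 3 rats were above the sham range and rats 6 and 8 were within it. Of the 6 microglial markers, 2 were higher at an unadjusted p under 0.05 (edgeR), and 5 had a positive log2 fold change. Other sums, over sham and then stimulated rats, ran for endothelial markers from 127 to 150 and 144 to 276 CPM. For choroid plexus markers they ran from 3.31 to 17.0 and 6.70 to 34.7 CPM. At an unadjusted p under 0.05 (edgeR), 4 of 6 endothelial and 1 of 5 choroid plexus markers were higher. The log2 fold change was positive for all 6 endothelial and all 5 choroid plexus markers. Of the choroid plexus markers, Kl, Folr1 and Kcnj13 were under 2 CPM. No neuronal, dentate, CA3, CA1 or oligodendrocyte marker tested had an unadjusted p under 0.05. Some stimulated rats nevertheless lay below the lowest sham rat in these sums. The lowest were rat 10, with 1700 CPM of neuronal markers (sham minimum 2048), 627 CPM of CA3 markers (748) and 99.6 CPM of CA1 markers (176), and rat 7, with 124 CPM of dentate markers (187) and 2045 CPM of oligodendrocyte markers (2532). Rat 7 was above the sham range for CA3 markers, at 979 CPM, rat 9 for dentate markers, at 298 CPM, and rat 6 for CA1 markers, at 353 CPM. The part of these cell types and of neuronal activity in the member differences was not tested.

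Sat2 was also set beside its neighbours. In the GRCr8 annotation Sat2 lies within the span of Shbg, which encodes sex hormone-binding globulin, and the use of strand in counting was not stated, so the gene of origin is uncertain for reads from any stretch the 2 genes share. Odc1, Amd1, Smox and Oaz2 also overlap other annotated genes there, and their counts carry this doubt over the shared bases, which differ in extent. Snora80l1 shares 134 bases with Odc1 and Cdk19 shares 29 with Amd1, where Shbg shares 2121 with Sat2. LOC100361476 shares 2483 bases with Amd1 and LOC134486446 shares 5464 with Smox. Shbg (NM_012650) was low, averaging 5.20 ± 0.895 CPM over sham rats and 4.12 ± 1.70 CPM over stimulated rats (± SD, n = 5 per group). Its log2 fold change was -0.35 (edgeR adjusted p = 0.718). The next gene with a feature, Fxr2 (NM_001100647), a relative of the fragile X protein, was at 120 ± 9.25 and 124 ± 9.87 CPM, with a log2 fold change of 0.05 (edgeR adjusted p = 0.897).

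The features most like Sat2 over the 10 rats were found after log2 CPM had been centred on each group mean, among 8253 features with a symbol and a mean of at least 10 CPM. They were Hgh1 with a Pearson r of 0.950, Cops6, a subunit of the COP9 signalosome, with 0.935, Polr2e with 0.935 and Polr2f with 0.931, both subunits of RNA polymerase, and Ypel3 with 0.919. These correlations share libraries and depth and were picked as the highest of many. The log2 fold changes of the 5 features were 0.19 for Hgh1, -0.14 for Cops6, -0.11 for Polr2e, -0.20 for Polr2f and -0.14 for Ypel3.

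The wider pathway was then counted. Of 45 further genes of polyamine metabolism and its regulation, ornithine supply, the methionine cycle, polyamine transport, hypusination and polyamine-gated channels, 41 had a feature and 35 were tested. An unadjusted p under 0.05 was obtained for 3 genes that were higher (Slc3a2, Gria3 and Kcnj14) and 1 that was lower (Arg1), beside 6.70% and 3.16% of all features, and 0 passed after adjustment. The median log2 fold change was -0.03, and the sign of the change was positive for 14 genes and negative for 21.

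By list, the genes at an unadjusted p under 0.05 were 1 of 7 tested genes of ornithine supply (lower), 1 of 7 transport genes (higher) and 2 of 8 channel genes (both higher). None of the 7 genes of the methionine cycle and salvage, the 4 of hypusination (the modification of Eif5a by spermidine) or the 2 other polyamine enzymes and regulators reached an unadjusted p under 0.05. Mat2a, which makes S-adenosylmethionine, had a log2 fold change of 0.38 (edgeR adjusted p = 0.557), and Azin2, antizyme inhibitor 2, had -0.19 (edgeR adjusted p = 0.774). Paox, Mtap, Slc7a1 and Slc18b1 were listed, but no feature was matched to their symbols, so they were not analysed here. Genes with too few counts to be tested included Oaz3, Satl1 and Mat1a.

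Arg1 (NM_017134), arginase 1, which makes ornithine from arginine, was at 8.73, 9.92, 8.87, 15.0 and 11.5 CPM across sham rats and 8.69, 2.65, 8.62, 7.14 and 4.59 CPM across stimulated rats. The groups did not overlap, by a margin of rat 6 against sham rat 1, and rat 7 was the lowest. Of the 35 tested pathway genes Arg1 alone had separated groups, beside 0.695% of all features separated upward and 0.597% separated downward. The log2 fold change of Arg1 was -0.78 (SE 0.28, edgeR adjusted p = 0.418). Without sham rat 4 no pathway gene was lower at an unadjusted p under 0.05, and the count was 2 without sham rat 5 or without stimulated rat 7, 8 or 9 and 3 without rat 10.

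Slc3a2 (NM_001271089), the heavy chain of amino acid transporters linked to polyamine export, was at 70.9, 72.2, 65.3, 69.1 and 76.6 CPM across sham rats and 71.2, 105, 86.3, 97.0 and 92.8 CPM across stimulated rats. Rats 7 to 10 were above all sham rats, the same 4 rats as for Smox (log2 fold change 0.35, SE 0.103, edgeR adjusted p = 0.389). Gria3 (NM_032990), an AMPA receptor subunit, was at 59.4, 65.9, 70.3, 72.0 and 70.9 CPM across sham rats and 86.4, 111, 87.9, 68.1 and 92.6 CPM across stimulated rats. Here rat 9 alone lay within the sham range (log2 fold change 0.40, SE 0.117, edgeR adjusted p = 0.39). The Gria3 feature used here was that with the highest mean count. The study's own edgeR list for this model gives another Gria3 transcript as higher, at an adjusted p under 0.05. Kcnj14 (NM_170718), an inward rectifier potassium channel, was at 17.0, 15.7, 13.0, 12.2 and 14.1 CPM across sham rats and 16.2, 17.0, 19.8, 16.1 and 21.3 CPM across stimulated rats. Rats 8 and 10, and rat 7 marginally, were above the sham range, and Kcnj14 had a log2 fold change of 0.33 (SE 0.129, edgeR adjusted p = 0.431).

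**Figure D5:**
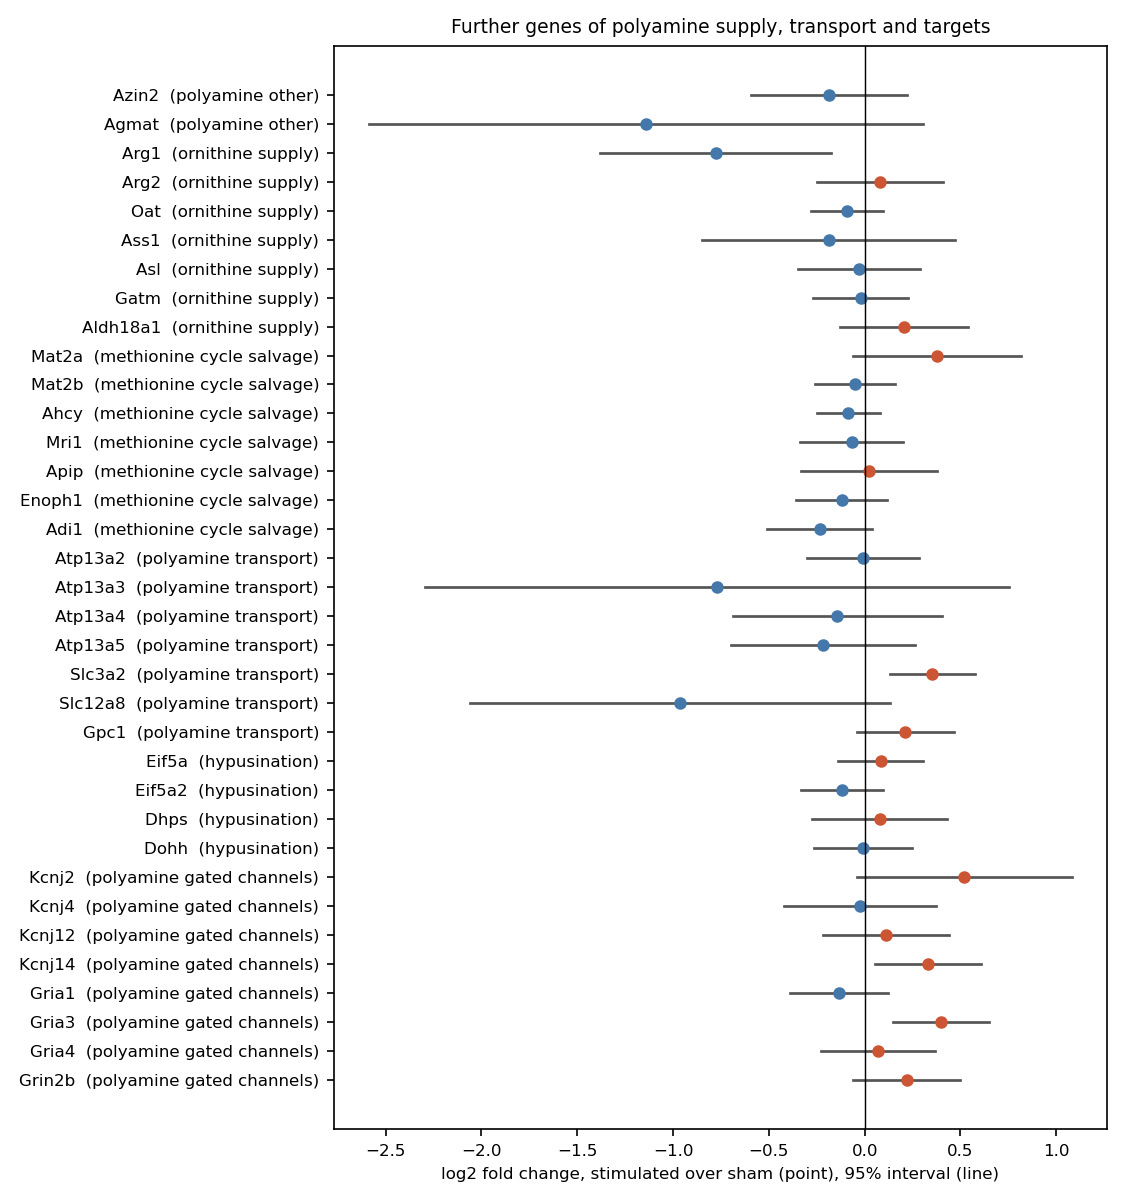
Fitted log2 fold change, stimulated over sham (x axis), of the 35 further pathway genes tested, with 95% intervals as lines, red for higher and blue for lower, and the list of each gene in brackets. The intervals of Slc3a2, Gria3 and Kcnj14 lie above 0 and that of Arg1 lies below 0, and the widest intervals belong to genes with few counts such as Agmat.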

How the data were processed

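Per the methods, BWA alignment to RN4 was followed by the authors' own counting over Ensembl genes. The deposited matrix holds raw counts per RefSeq transcript, a difference not explained in the sources used here. The handling of shared reads and of strand was not stated either. The row of unaligned reads (32.01% to 45.14% of reads) was set aside. Symbols were matched by transcript identifier to the RefSeq table of GRCr8, for 17371 of 32041 features. Groups came from the treatment labels. The methods give fewer stimulated rats than the labels and do not say which was left out, so all 10 were used.

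Features with a summed count under the 30th percentile (46 counts) were removed, as in the study. Stimulated rats were compared with sham rats by edgeR 4.0.16 (quasi-likelihood test, R 4.3.3) with TMM factors and Benjamini-Hochberg adjustment over 22447 features. CPM used TMM-scaled library sizes, and log2 CPM a prior count of 2. The fit was tested on simulated data. Python 3.11.15, numpy 2.4.6, pandas 2.3.3, scipy 1.17.1 and matplotlib 3.10.9 were used for descriptions and plots. Members and lists were chosen with earlier results of these data known. Named were all members, pathway genes at an unadjusted p under 0.05 (at most 3 per direction and list by size of change), Sat2's neighbours and its 5 most correlated features. A few further genes (Mat2a, Azin2, Agmat, Fos, Gfap) were named after their values were seen. Alternatives were other scaling factors and filters, DESeq2 1.42.0, limma 3.58.1, other edgeR tests, and each rat left out.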

Additional observations from a re-analysis of the deposited data

Results flagged for a closer look

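In 1 of 52 groups of 5 rats that were examined for a rat far from the others, the summed level of 6 endothelial markers in stimulated rats, rat 10 stood apart. It reached 276 CPM where the other stimulated rats had 144 to 162 CPM, and its gap to the nearest rat was 0.867 of the range of the group (critical value 0.71). Chance alone gives about 2.6 such groups among 52. The groups were those of the 10 members, of 6 ratios between members and of 10 marker sums, and no member or ratio stood out in this way.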

How the results depend on the processing

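Each member held at least 245 counts in each rat, a counting error of at most 6.39%, and the precision of a group mean rests on 5 rats. The count of features at an adjusted p under 0.05 was 0 with the quasi-likelihood test (2214 at an unadjusted p under 0.05), 119 with the likelihood ratio test, 89 with the exact test of edgeR and 33 with DESeq2, and 0 members passed under any of them. Members higher at an unadjusted p under 0.05 numbered 4, and 1 with upper quartile factors, 2 with robust empirical Bayes, 1 with limma-voom, and 3 (without Odc1) with RLE factors, with the filter of 10 counts in 4 samples or with one row per gene symbol. Leaving out 1 rat at a time gave 1 to 4. Members with separated groups, higher, numbered 0, but 1 (Smox) with library size alone as scaling and 0 to 1 with a rat left out. With one row per gene symbol 950 features were higher and 409 lower at an unadjusted p under 0.05, because fewer features were tested (12321). With limma-voom the higher and lower features numbered 1097 and 937, against 1505 and 709. With a rat left out the lower features numbered 536 to 1287 and the lower pathway genes 0 to 3. Differences near 0 changed sign. With a rat left out, the log2 fold change ranged from -0.037 (without sham rat 2) to 0.137 for Sms, from -0.059 (without stimulated rat 7) to 0.168 for Srm and from -0.063 (without stimulated rat 9) to 0.178 for Amd1. The cause of these changes was not tested. The other 503 values kept their direction where called and their side of the threshold, or moved by less than the spread between rats or by less than 1.5 times for counts, although several moved in size. The log2 fold change of Sat2, never tested, ranged from -0.58 to -0.47. Under the scalings the median log2 fold change of all features moved between -0.01 and 0.03. The adjusted deviances setting was chosen after seeing the data. Rows of a member other than the highest could not be tried, since each member had 1 row. No paired analysis was possible because the rat numbers of the groups are not shared.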
